A study of Mus musculus with 8 samples.

Results

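The extracellular matrix genes described here are 48 genes for collagens, laminins and other matrix proteins, taken by gene symbol from a table of 55919 genes. Each of the 48 symbols was found in the table. By what their products form, 23 were placed in the interstitial matrix, 20 in basement membranes and 5 among the matricellular proteins. RNA of whole kidneys from female C57BL/6 x 129S4/SvJae mice was sequenced in 8 libraries, 2 per group, each made from a pool of RNA of 3 mice. Kidneys of WT mice without injury formed group WT-NI, and those of Tet1 KO mice without injury KO-NI. For group WT-I/R 3D, and likewise KO-I/R 3D, the left renal pedicle had been clamped for 45 min and the kidney taken 3 days later. WT mice were Tet1+/+. KO mice were Tet1-/- for the Tet1tm1.1Jae allele, a germline allele carried by every cell type. The sources used here give no age for the sequenced mice. The surgical protocol names both an injured and a non-injured kidney at harvest, and whether the NI pools came from operated mice is not stated. The question was how genes of each kind of matrix responded to ischemia/reperfusion (I/R) and whether the response differed by Tet1 genotype.

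Interstitial matrix fills the space between tubules and is built of fibrillar collagens, fibronectin, elastic fibres and small proteoglycans, made mostly by fibroblasts and pericytes. Basement membranes are thin sheets under epithelia and endothelia, made of laminin and collagen IV networks tied together by nidogens and heparan sulfate proteoglycans. In the glomerular filter the mature collagen IV network is built of the alpha 3, alpha 4 and alpha 5 chains and comes from podocytes, whereas the alpha 1 and alpha 2 chains are found in nearly every basement membrane. Matricellular proteins such as tenascin C and periostin bind to the matrix, are scarce in most healthy adult tissue and appear in repair.

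The promoters of 5 of these genes are shown because the collagen IV and fibrillar collagen results turn on these genes: Col4a1 and Col4a2, a head-to-head pair that rose in injured KO kidneys, Col4a4, which fell there, and Col1a2 and Col3a1, which rose. Sequences are from RefSeq on GRCm38.p6, 250 bases before to 50 bases after the start site, 5′ to 3′ on the strand of the gene. Of the 48 genes, 30 were matched in the promoter table. Entries for Lum, Lamc1, Lox, Nid2, Thbs1, Col5a2, Eln, Fn1, Col4a3, Lama1, Lama4, Col14a1, Col1a1, Dcn, Col12a1, Loxl2, Loxl1 and Lama3 were not matched. In the Col4a1 window (chr8:11312777-11313076, minus strand) and the Col4a2 window (chr8:11312555-11312854, plus strand) capitals mark the 78 bases held by both windows, each read on its own strand. The 2 start sites lie 21 bases apart.
Col4a1: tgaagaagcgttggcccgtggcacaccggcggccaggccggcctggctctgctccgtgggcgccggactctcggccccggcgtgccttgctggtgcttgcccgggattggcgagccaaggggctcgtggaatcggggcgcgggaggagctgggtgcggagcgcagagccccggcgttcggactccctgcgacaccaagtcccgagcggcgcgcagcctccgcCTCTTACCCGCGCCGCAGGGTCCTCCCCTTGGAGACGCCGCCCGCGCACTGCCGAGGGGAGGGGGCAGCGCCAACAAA
Col4a2: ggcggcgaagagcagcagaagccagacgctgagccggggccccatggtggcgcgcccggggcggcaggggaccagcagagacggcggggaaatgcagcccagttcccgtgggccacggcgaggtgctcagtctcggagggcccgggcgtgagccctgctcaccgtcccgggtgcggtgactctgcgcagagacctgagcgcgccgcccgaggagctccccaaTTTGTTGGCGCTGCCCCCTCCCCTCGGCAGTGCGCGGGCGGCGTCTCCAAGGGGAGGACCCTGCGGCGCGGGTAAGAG
In the Col4a4 window (chr1:82586800-82587099, minus strand) none of the 3 motifs searched was found. These were the CCAAT box, spelled CCAAT, the TATA box, spelled TATAAA, and the GC box, spelled GGGCGG, each sought on both strands, and their matches in the printed windows did not overlap each other. The Col4a1 window held 1 CCAAT box and 1 GC box, and the Col4a2 window 1 CCAAT box and 3 GC boxes.
Col4a4: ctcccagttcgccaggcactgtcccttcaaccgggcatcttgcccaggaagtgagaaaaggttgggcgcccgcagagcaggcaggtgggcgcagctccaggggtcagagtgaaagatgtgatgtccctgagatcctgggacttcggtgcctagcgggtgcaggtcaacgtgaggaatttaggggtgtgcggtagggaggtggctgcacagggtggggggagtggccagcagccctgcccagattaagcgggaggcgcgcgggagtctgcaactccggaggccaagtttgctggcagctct
In the Col1a2 window (chr6:4505368-4505667, plus strand) capitals mark 2 CCAAT and 2 GGGCGG matches, and in the Col3a1 window (chr1:45311288-45311587, plus strand) they mark 1 TATAAA match.
Col1a2: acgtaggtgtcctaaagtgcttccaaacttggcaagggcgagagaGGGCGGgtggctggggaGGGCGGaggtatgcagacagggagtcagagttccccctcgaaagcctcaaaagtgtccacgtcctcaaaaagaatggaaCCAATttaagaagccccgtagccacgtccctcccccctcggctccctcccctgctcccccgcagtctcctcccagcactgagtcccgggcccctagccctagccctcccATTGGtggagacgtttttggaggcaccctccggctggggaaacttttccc
Col3a1: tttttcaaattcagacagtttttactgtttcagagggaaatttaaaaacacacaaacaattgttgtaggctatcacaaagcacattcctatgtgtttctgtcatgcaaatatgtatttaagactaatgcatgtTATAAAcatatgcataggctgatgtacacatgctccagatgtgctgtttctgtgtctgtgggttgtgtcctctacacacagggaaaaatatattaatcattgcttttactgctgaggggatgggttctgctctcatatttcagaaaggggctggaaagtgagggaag
CCAAT was found for 12 of the 30 matched genes against 37.4% of all 32817 promoters of the same length, TATAAA for 4 against 13.6%, and GGGCGG for 20 against 35.6%. The units differ, since a gene counted if any of its promoters held a match, and the percentages are of single promoters. These are letter matches only.

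Recovered reads per library ran from 13961281 to 18480858. Tet1 was at 0.378 and 0.323 FPKM in WT-NI, 0.551 and 0.382 in KO-NI, 0.243 and 0.313 in WT-I/R 3D, and 0.189 and 0.158 in KO-I/R 3D, where KO-NI and KO-I/R 3D are the libraries labelled so. A value over the whole gene does not check the deleted part of Tet1, so directions that involve KO-NI rest on the label. The first KO-NI library stood apart from the others. Between the KO-NI libraries 1804 genes differed more than 2-fold, against 723 to 838 within the other groups, and 10.9% of its reads were mitochondrial against 4.76% to 7.70% in the other 7 libraries. It was the lowest of the 4 NI libraries for 30 of 47 matrix genes (63.8%), against 38.2% of all genes tested. A single limma model of log2(FPKM + 0.1) held all 4 groups and 15650 genes. A gene was called where its Benjamini-Hochberg adjusted p was under 0.05 and its log2 fold change lay beyond 0.5 in either direction, and "rose" and "fell" are used of called genes. FPKM, fragments scaled to gene length and to library total, is a level per length. Calls are those of the FPKM model unless limma voom is named, and fold changes are on the log2(FPKM + 0.1) scale. With 2 pools per group, the p-values rest on how far pools of the same group lay apart. That spread was taken for each gene over all 4 groups together. The gap between the KO-NI libraries therefore also entered the p-values of the WT injury comparison. In bulk RNA fewer cells of a type and less RNA per cell cannot be told apart.

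After I/R in WT mice, 22 matrix genes rose and 1, Lama3, fell, and 24 of the 47 tested were not called. Of all genes tested, 8.90% rose and 8.45% fell. The median log2 fold change was 0.78 over the matrix genes and -0.01 over all genes. Both WT-I/R 3D libraries lay above both WT-NI libraries for 35 matrix genes and below them for 8, against 34.5% and 37.6% of all genes. The calls were spread unevenly over the classes. Of 22 interstitial genes tested 15 rose (median 1.55), of 20 basement membrane genes 3 rose and 1 fell (median 0.09), and of 5 matricellular genes 4 rose (median 1.48). In KO mice 31 matrix genes rose and 4 fell, Col4a3, Col4a4, Col4a5 and Lama3, where 17.9% of all genes rose and 19.4% fell, and the median over the matrix genes was 1.34. There 19 of 22 interstitial genes rose (median 1.69), 7 of 20 basement membrane genes rose and 4 fell (median 0.09), and 5 of 5 matricellular genes rose (median 1.65). Both KO-I/R 3D libraries lay above both KO-NI libraries for 35 matrix genes and below for 9, against 32.5% and 34.9% of all genes. With limma voom on the recovered reads, which tested all 48 genes, 28 rose and 3 fell in WT (10.8% and 9.41% of all genes) and 34 and 4 in KO mice (20.0% and 18.9%). For runs given below without a share of all genes, a change particular to matrix genes cannot be told from a change over all genes. The WT count depended on single libraries. It was 12 without the first WT-NI library, 13 without the second, 16 when the first WT-I/R 3D library was left out and 10 without the second, with none lower in each case, and 28 with 3 lower without either KO-NI library, where leaving out the second gave 13.1% of all genes higher and 11.8% lower. In KO mice, 31 rose and 4 fell without the first KO-NI library and 25 and 3 without the second KO-I/R 3D library. With only the compared libraries, 27 rose and 3 fell in WT, and 29 rose and 3 fell in KO mice. The genes called in WT under every alternative were Col1a1, Col1a2, Col3a1, Col5a3, Dcn, Bgn, Lox, Loxl2, Tnc and Sparc, 10 of 23, and in KO mice 28 of 35 calls were kept. The 7 that were lost, all of them without the second KO-I/R 3D library, were Col12a1, Col16a1, Col4a1, Col4a5, Col18a1, Lamb3 and Thbs1. Scaling to TPM, which moved the median of all genes by 0.18 in WT and 0.40 in KO mice, gave 23 higher and 0 lower in WT and 35 and 3 in KO mice.

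**Figure D1:**
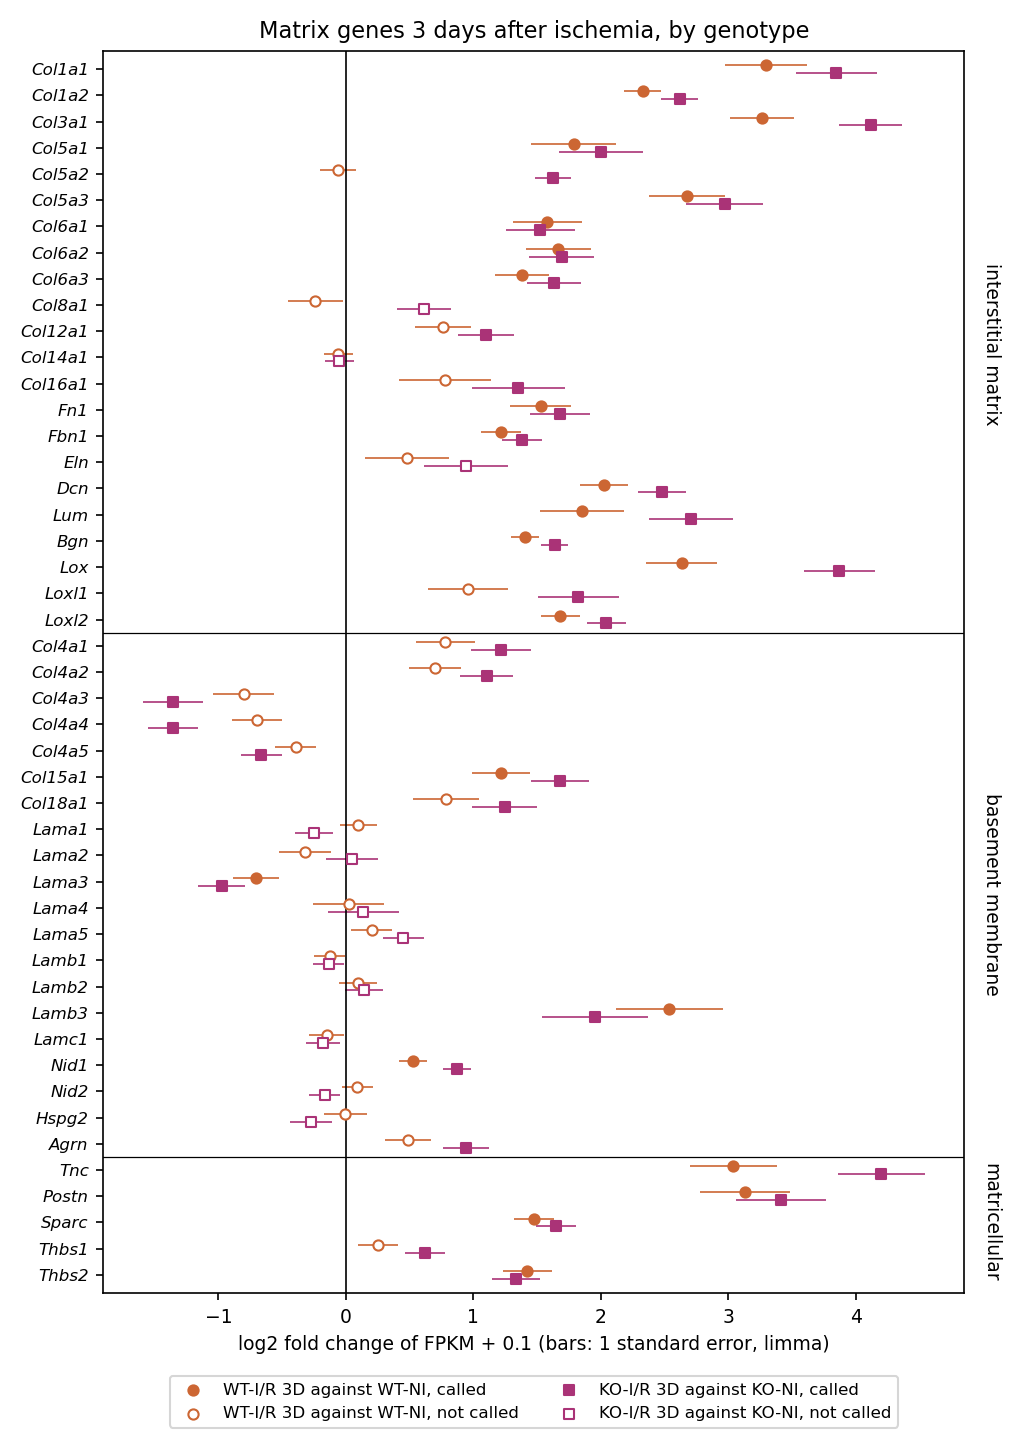
Log2 fold change of FPKM + 0.1 from non-injured to I/R 3D kidneys for the 47 matrix genes tested, circles for WT and squares for KO, filled where called, with bars of 1 standard error from limma (2 libraries per group). Interstitial and matricellular genes lie mostly to the right of 0, with Tnc in KO kidneys farthest at 4.20, and basement membrane genes lie on both sides, from 2.54 for Lamb3 in WT to -1.36 for Col4a4 in KO kidneys.

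Summed over the class, interstitial genes were at 117 and 122 FPKM in WT-NI, 96.0 and 125 in KO-NI, 369 and 407 in WT-I/R 3D, and 441 and 533 in KO-I/R 3D. The sum over the basement membrane genes was 372 and 368, 315 and 384, 441 and 476, and 451 and 534 in the same order. Matricellular genes summed to 57.7 and 63.6, 64.3 and 69.0, 147 and 151, and 169 and 213. In non-injured kidneys the basement membrane genes thus held the larger part of the matrix RNA measured here, and after I/R the interstitial sum came near to theirs.

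Among the smaller groups of matrix genes the fibrillar collagens had the highest median log2 fold change, 2.50 in WT and 2.79 in KO mice, with 5 of 6 genes rising in WT and 6 of 6 in KO mice. Col1a1, the alpha 1 chain of collagen I, was at 5.66 and 6.85 FPKM in WT-NI, 3.32 and 6.82 in KO-NI, 56.6 and 68.1 in WT-I/R 3D, and 62.5 and 78.2 in KO-I/R 3D. Col1a2, the alpha 2 chain of the same trimer, was at 5.94 and 6.83 FPKM in WT-NI, 6.25 and 6.92 in KO-NI, 30.5 and 34.3 in WT-I/R 3D, and 37.2 and 45.0 in KO-I/R 3D. Col3a1, whose product forms mixed fibrils with collagen I, was at 5.04 and 6.86 FPKM in WT-NI, 4.69 and 6.18 in KO-NI, 50.1 and 65.5 in WT-I/R 3D, and 80.9 and 112 in KO-I/R 3D. In all 3 the injured libraries of each genotype lay far above the non-injured ones, with no overlap. The log2 fold change of Col1a1 was 3.30 (SE 0.32, limma adjusted p = 0.00308) in WT and 3.85 (SE 0.32, limma adjusted p = 0.000479) in KO kidneys. For Col1a2 it was 2.33 (SE 0.15, limma adjusted p = 0.00185) in WT and 2.62 (SE 0.15, limma adjusted p = 0.000332) in KO kidneys. For Col3a1 it was 3.26 (SE 0.25, limma adjusted p = 0.00199) in WT and 4.12 (SE 0.25, limma adjusted p = 0.000362) in KO kidneys. Each of these changes was larger than the spread between libraries of a group. Among the minor fibrillar chains, which set fibril diameter, Col5a1 was at 2.51 and 2.72 FPKM in WT-NI, 1.54 and 3.40 in KO-NI, 8.50 and 10.1 in WT-I/R 3D, and 8.53 and 10.6 in KO-I/R 3D. Col5a3, the scarcest of the collagen V chains before injury, was at 0.603 and 0.524 FPKM in WT-NI, 0.247 and 0.514 in KO-NI, 4.13 and 4.15 in WT-I/R 3D, and 3.39 and 3.66 in KO-I/R 3D. Both rose in both genotypes, Col5a1 by 1.79 and 2.00 and Col5a3 by 2.68 and 2.97 on the log2 scale. With a pseudocount of 1 the value of Col5a3 was 1.72 in each genotype. Col5a2 did not follow them in WT kidneys and is described with the genotype comparisons.

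Of the other interstitial collagens 3 of 7 genes rose in WT and 5 of 7 in KO mice, with medians of 0.78 and 1.35. The 3 chains of collagen VI, which forms beaded filaments near cell surfaces, rose in both. Col6a1 was at 8.10 and 8.77 FPKM in WT-NI, 7.21 and 12.9 in KO-NI, 26.7 and 24.2 in WT-I/R 3D, and 24.5 and 31.9 in KO-I/R 3D. Col6a2 was at 2.72 and 2.45 FPKM in WT-NI, 2.29 and 3.95 in KO-NI, 8.42 and 8.40 in WT-I/R 3D, and 8.73 and 11.3 in KO-I/R 3D. Col6a3 was at 3.48 and 3.39 FPKM in WT-NI, 2.94 and 4.74 in KO-NI, 8.88 and 9.32 in WT-I/R 3D, and 11.7 and 12.0 in KO-I/R 3D. In each of the 3 chains all injured libraries lay above all non-injured ones, and their log2 fold changes lay between 1.38 and 1.69. Col12a1, a fibril-associated collagen, was at 0.854 and 0.844 FPKM in WT-NI, 0.949 and 0.861 in KO-NI, 1.60 and 1.42 in WT-I/R 3D, and 1.93 and 2.17 in KO-I/R 3D. Col16a1, of the same family, was at 4.32 and 4.31 FPKM in WT-NI, 2.05 and 4.76 in KO-NI, 7.52 and 7.42 in WT-I/R 3D, and 6.86 and 9.70 in KO-I/R 3D. Both rose in KO mice, Col12a1 by 1.10 and Col16a1 by 1.35 on the log2 scale. In WT neither passed the test in the FPKM model. The injured WT libraries of both lay above the non-injured ones, as for 34.5% of all genes. Limma voom called Col12a1 higher in WT as well (log2 fold change 0.83, SE 0.17). Col14a1, also fibril-associated, stayed between 10.9 and 13.1 FPKM in the 8 libraries and was called in no comparison. Col8a1, a short-chain collagen of vessels, lay between 1.91 and 3.34 FPKM and was not called either, whereas limma voom called it higher in injured KO kidneys (log2 fold change 0.63, SE 0.21).

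Fibronectin and fibrillin-1, on which other matrix proteins assemble, rose in both genotypes, and elastin (Eln), the core of elastic fibres, was not called in the FPKM model. Fn1 was at 7.00 and 6.52 FPKM in WT-NI, 5.56 and 9.13 in KO-NI, 17.6 and 22.0 in WT-I/R 3D, and 21.9 and 24.2 in KO-I/R 3D. Its log2 fold change was 1.53 (SE 0.24, limma adjusted p = 0.00915) in WT and 1.68 (SE 0.24, limma adjusted p = 0.00212) in KO kidneys. Fbn1 was at 2.08 and 1.74 FPKM in WT-NI, 2.06 and 2.35 in KO-NI, 4.43 and 4.68 in WT-I/R 3D, and 5.60 and 6.20 in KO-I/R 3D, and all injured libraries lay above all non-injured ones. Eln lay between 1.18 and 3.64 FPKM, and limma voom called it higher in injured KO kidneys (log2 fold change 0.97, SE 0.29). The small leucine-rich proteoglycans, which coat collagen fibrils, all rose. Decorin (Dcn) was at 3.13 and 3.56 FPKM in WT-NI, 4.07 and 2.78 in KO-NI, 13.3 and 14.5 in WT-I/R 3D, and 19.0 and 19.5 in KO-I/R 3D. Biglycan (Bgn), the most abundant of them per length, was at 28.4 and 29.0 FPKM in WT-NI, 27.9 and 28.1 in KO-NI, 74.8 and 77.6 in WT-I/R 3D, and 82.8 and 92.0 in KO-I/R 3D. Lumican (Lum) was at 0.739 and 0.496 FPKM in WT-NI, 0.471 and 0.566 in KO-NI, 1.86 and 3.22 in WT-I/R 3D, and 4.38 and 3.51 in KO-I/R 3D. The log2 fold change of Dcn was 2.02 (SE 0.19, limma adjusted p = 0.00273) in WT and 2.48 (SE 0.19, limma adjusted p = 0.000413) in KO kidneys, and that of Bgn 1.41 (SE 0.11, limma adjusted p = 0.00199) in WT and 1.64 (SE 0.11, limma adjusted p = 0.00039) in KO kidneys. For Lum it was 1.85 and 2.71, and 1.11 and 1.70 with a pseudocount of 1. The replicates of Bgn lay close together, so its standard error was smaller than that of Dcn. Versican (Vcan), a large proteoglycan, was below the filter, at 0.0337 to 0.129 FPKM in the 4 non-injured and 0.514 to 1.20 FPKM in the 4 injured libraries. It was not tested in the FPKM model, and limma voom called it higher in WT (log2 fold change 3.76, SE 0.65, adjusted p = 0.00339) and in KO mice (3.38, SE 0.51, adjusted p = 0.00052).

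Of the 3 lysyl oxidases, enzymes that cross-link collagen and elastin, 2 rose in WT and 3 in KO mice. Lox was at 0.451 and 0.568 FPKM in WT-NI, 0.427 and 0.427 in KO-NI, 3.78 and 3.56 in WT-I/R 3D, and 5.82 and 9.90 in KO-I/R 3D. Loxl2, which cross-links collagen IV too, was at 1.92 and 2.35 FPKM in WT-NI, 2.15 and 2.25 in KO-NI, 7.62 and 6.48 in WT-I/R 3D, and 9.48 and 9.24 in KO-I/R 3D. Loxl1, which acts on elastic fibres, was at 8.27 and 9.53 FPKM in WT-NI, 3.98 and 8.40 in KO-NI, 17.5 and 17.2 in WT-I/R 3D, and 19.0 and 22.7 in KO-I/R 3D. The non-injured and injured libraries did not overlap for Lox, Loxl2 or Loxl1. Injured libraries lay above non-injured ones for 34.5% of all genes in WT and 32.5% in KO mice. Lox had a log2 fold change of 2.63 (SE 0.28, limma adjusted p = 0.00379) in WT and 3.87 (SE 0.28, limma adjusted p = 0.0004) in KO kidneys, and Loxl2 of 1.68 (SE 0.15, limma adjusted p = 0.00269) in WT and 2.04 (SE 0.15, limma adjusted p = 0.000413) in KO kidneys. With a pseudocount of 1 Lox had 1.63 in WT and 2.60 in KO kidneys. Loxl1 passed the test in KO mice, at 1.82 (SE 0.32, limma adjusted p = 0.00455), and not in WT, at 0.96 (SE 0.32, limma adjusted p = 0.0792), where limma voom called it higher (adjusted p = 0.0197, 0.00335 to 0.293 over the alternatives). The first KO-NI library, at 3.98 FPKM, lay well below the second, at 8.40 FPKM.

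**Figure D2:**
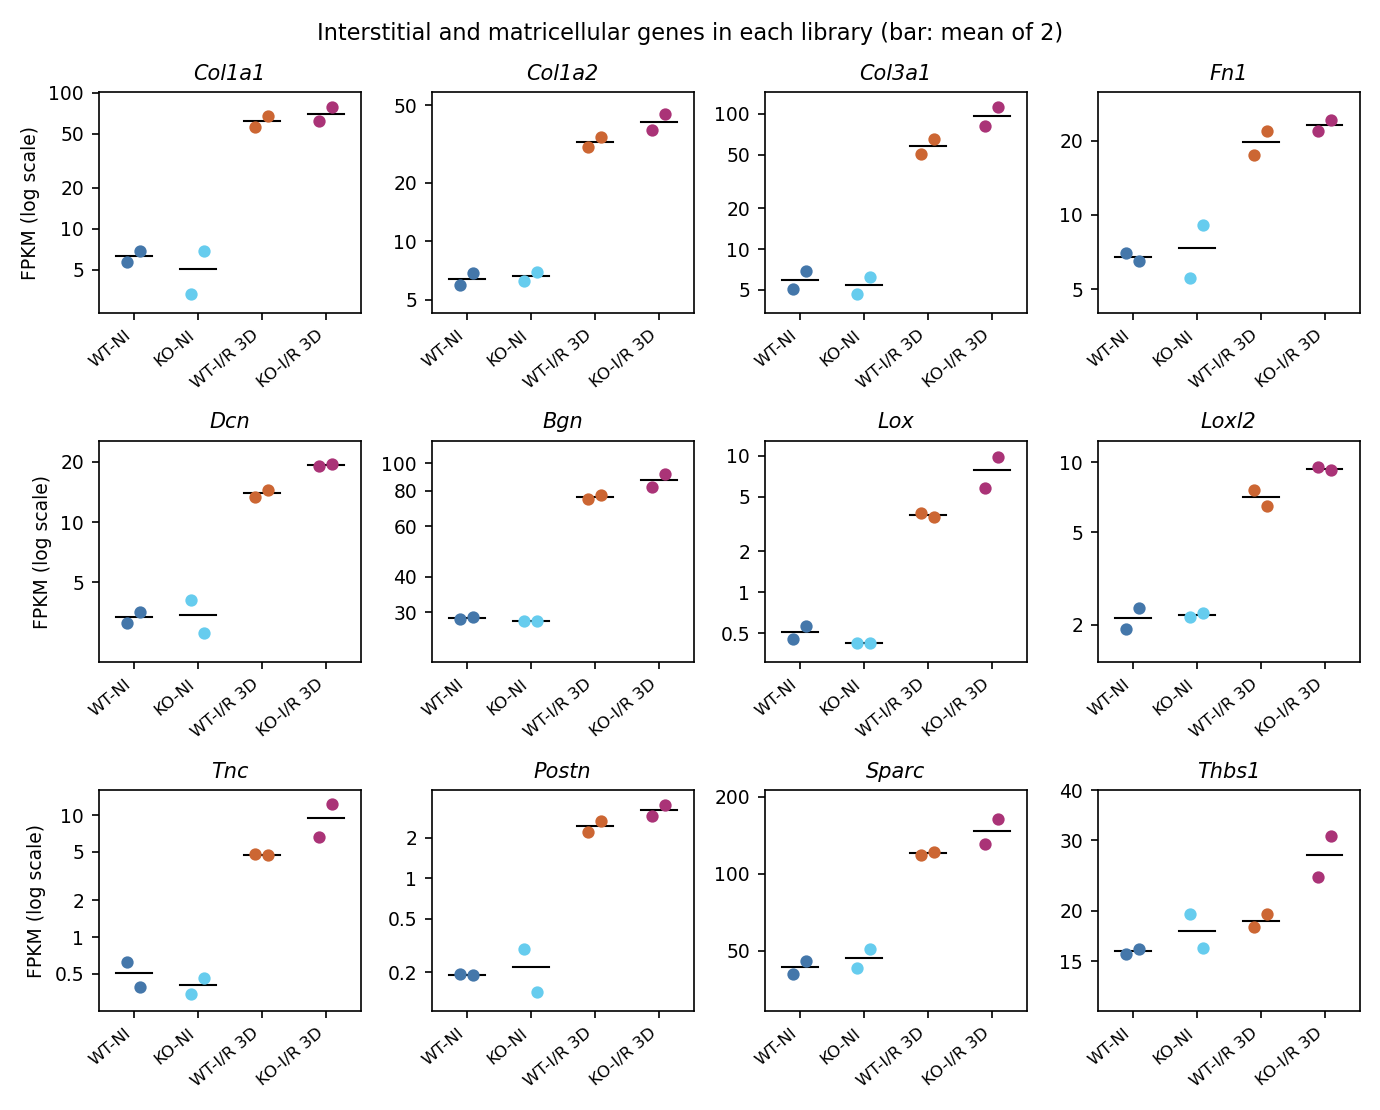
FPKM of 8 interstitial genes and 4 matricellular genes in each of the 8 libraries on a log scale, 2 points per group with a bar at their mean. Col1a1 goes from 3.32 to 6.85 FPKM in the non-injured to 56.6 to 78.2 FPKM in the injured libraries. In all panels but Col1a1 and Fn1 both KO-I/R 3D libraries lie above both WT-I/R 3D libraries, as for 28.0% of all genes.

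Matricellular genes rose in 4 of 5 cases in WT and 5 of 5 in KO mice. Tnc, for tenascin C, was at 0.618 and 0.386 FPKM in WT-NI, 0.342 and 0.459 in KO-NI, 4.82 and 4.69 in WT-I/R 3D, and 6.58 and 12.4 in KO-I/R 3D. Postn, for periostin, was at 0.192 and 0.189 FPKM in WT-NI, 0.295 and 0.142 in KO-NI, 2.21 and 2.68 in WT-I/R 3D, and 2.93 and 3.50 in KO-I/R 3D. Both were low in every non-injured library. Sparc, for a collagen-binding glycoprotein also known as osteonectin, had the highest mean FPKM of the 48 genes over the 8 libraries, at 40.4 and 45.7 FPKM in WT-NI, 42.7 and 50.9 in KO-NI, 119 and 121 in WT-I/R 3D, and 131 and 163 in KO-I/R 3D. The thrombospondin gene Thbs2 was at 0.894 and 1.14 FPKM in WT-NI, 1.37 and 1.34 in KO-NI, 3.05 and 2.72 in WT-I/R 3D, and 3.77 and 3.39 in KO-I/R 3D. Thbs1, whose product activates latent TGF beta, was at 15.6 and 16.1 FPKM in WT-NI, 19.6 and 16.1 in KO-NI, 18.2 and 19.6 in WT-I/R 3D, and 24.4 and 30.8 in KO-I/R 3D. It rose in KO mice, by 0.62 on the log2 scale, and was not called in WT, where the injured libraries lay only a little above the non-injured ones. The log2 fold change of Tnc was 3.04 (SE 0.34, limma adjusted p = 0.00418) in WT and 4.20 (SE 0.34, limma adjusted p = 0.000456) in KO kidneys. That of Postn was 3.13 (SE 0.35, limma adjusted p = 0.00416) in WT and 3.42 (SE 0.35, limma adjusted p = 0.000774) in KO kidneys, and that of Sparc 1.48 (SE 0.16, limma adjusted p = 0.00379) in WT and 1.65 (SE 0.16, limma adjusted p = 0.000643) in KO kidneys. Over the alternatives the WT value ran from 1.53 to 3.65 for Postn and from 1.94 to 3.36 for Tnc, lowest with a pseudocount of 1, where the KO values were 1.79 and 2.85, and the WT call of Postn was lost when the second WT-I/R 3D library was left out. For these 3 and for Thbs2 all injured libraries lay above all non-injured ones.

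Collagen IV genes were called in both directions in KO mice, 2 of 5 higher and 3 of 5 lower, and limma voom also called 2 higher and 2 lower in WT. Col4a1 and Col4a2 were higher after injury and Col4a3, Col4a4 and Col4a5 lower. RNA of whole kidneys does not show in which cells these genes changed. Col4a1 was at 44.0 and 44.0 FPKM in WT-NI, 31.0 and 49.5 in KO-NI, 67.6 and 84.6 in WT-I/R 3D, and 84.1 and 98.8 in KO-I/R 3D. Col4a2, which shares its promoter region with Col4a1 as printed above, was at 34.5 and 36.4 FPKM in WT-NI, 25.5 and 37.3 in KO-NI, 54.9 and 60.7 in WT-I/R 3D, and 58.7 and 74.8 in KO-I/R 3D. The pair had like log2 fold changes, of 0.78 (SE 0.23, limma adjusted p = 0.0611) in WT and 1.22 (SE 0.23, limma adjusted p = 0.00674) in KO kidneys for Col4a1, and 0.70 (SE 0.21, limma adjusted p = 0.058) in WT and 1.10 (SE 0.21, limma adjusted p = 0.006) in KO kidneys for Col4a2. The WT values did not pass in the FPKM model. Both WT-I/R 3D libraries lay above both WT-NI libraries for each gene, as for 34.5% of all genes. Limma voom called both genes higher in WT, with adjusted p = 0.0262 for Col4a1 (0.00863 to 0.28 over the alternatives) and 0.0266 for Col4a2 (0.00461 to 0.247). The first KO-NI library was the lowest of all 8 for both. Col4a3 was at 38.8 and 34.1 FPKM in WT-NI, 38.9 and 36.9 in KO-NI, 25.5 and 17.0 in WT-I/R 3D, and 17.6 and 12.3 in KO-I/R 3D. Col4a4 was at 36.6 and 34.3 FPKM in WT-NI, 37.7 and 35.7 in KO-NI, 26.0 and 18.3 in WT-I/R 3D, and 16.1 and 12.6 in KO-I/R 3D. Col4a5, on the X chromosome, was at 11.1 and 11.4 FPKM in WT-NI, 9.48 and 11.8 in KO-NI, 9.30 and 7.84 in WT-I/R 3D, and 7.26 and 6.09 in KO-I/R 3D. In all 3 the injured libraries of each genotype lay below its non-injured ones, as for 37.6% of all genes in WT and 34.9% in KO mice. The log2 fold change of Col4a3 was -0.80 (SE 0.24, limma adjusted p = 0.0595) in WT and -1.36 (SE 0.24, limma adjusted p = 0.00475) in KO kidneys, and that of Col4a4 -0.69 (SE 0.20, limma adjusted p = 0.0514) in WT and -1.36 (SE 0.20, limma adjusted p = 0.00228) in KO kidneys. The 3 genes fell in KO mice, Col4a5 by 0.66 on the log2 scale. In WT none passed in the FPKM model, and limma voom called Col4a3 (adjusted p = 0.0231, 0.0209 to 0.28 over the alternatives) and Col4a4 (adjusted p = 0.022, 0.022 to 0.247) lower.

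Most podocyte markers were also lower in the injured libraries, with 1 of 8 above 0 in log2 fold change in WT and 2 of 8 in KO mice. Of 8 such genes, 2 fell and 0 rose in WT (Nphs1 and Magi2, which encode slit diaphragm proteins), and 4 fell and 0 rose in KO mice (Nphs1, Magi2, Podxl and Ptpro), where 8.45% and 19.4% of all genes fell. Their summed FPKM was 111 to 119 in WT-NI, 113 to 128 in KO-NI, 78.1 to 98.2 in WT-I/R 3D and 68.5 to 84.5 in KO-I/R 3D. The second library of each injured group was the lower one both for this sum and for Col4a3, Col4a4 and Col4a5. That order was not particular to podocyte markers. Summed proximal tubule markers also went down from first to second library, 2083 to 1899 (injured WT) and 1395 to 1109 (injured KO). Summed injured tubule markers went up, 4639 to 7504 (injured WT) and 12453 to 14425 (injured KO). Endothelial markers went down in injured WT, 205 to 171, but up in injured KO, 131 to 157. The part of the podocyte markers in the lower collagen IV values was not tested. None of the 8 podocyte markers was at 0.

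**Figure D3:**
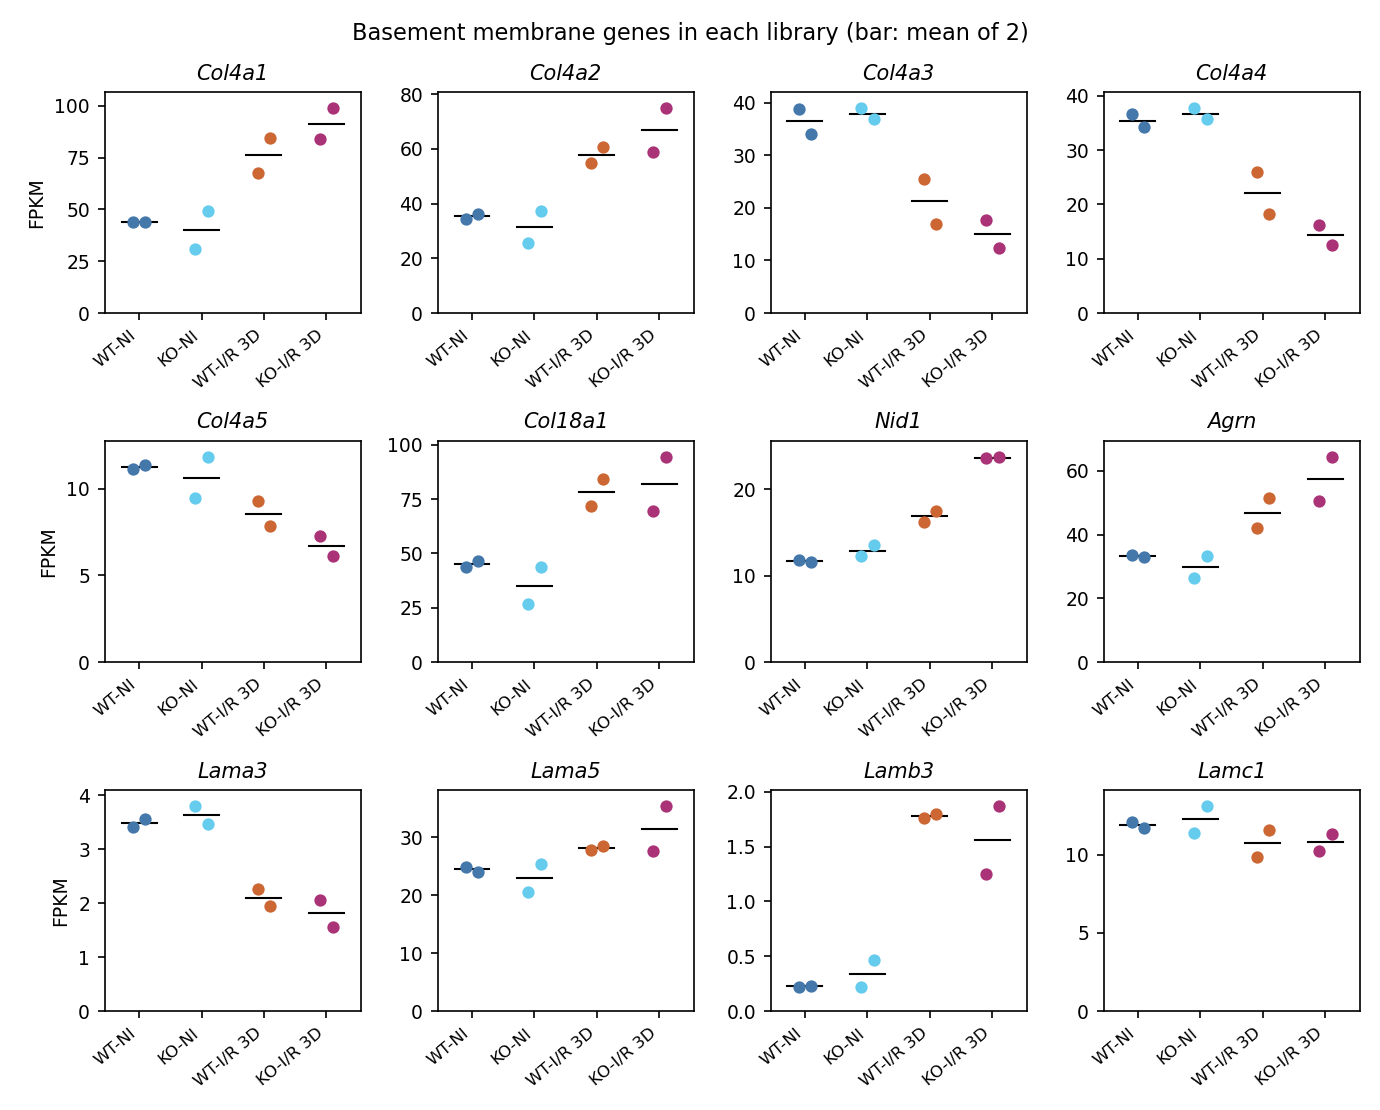
FPKM of 12 basement membrane genes in each of the 8 libraries, 2 points per group with a bar at their mean, each panel starting at 0. Col4a1 and Col4a2 lie higher in the injured libraries, Col4a3, Col4a4, Col4a5 and Lama3 lie lower, and Lamc1 stays between 9.89 and 13.1 FPKM.

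Among the other collagens of basement membranes, Col15a1, which links them to interstitial fibrils, was at 7.54 and 8.03 FPKM in WT-NI, 6.82 and 8.65 in KO-NI, 15.6 and 21.1 in WT-I/R 3D, and 20.8 and 29.7 in KO-I/R 3D. It rose in both genotypes, by 1.21 (SE 0.23, limma adjusted p = 0.0152) in WT and 1.68 (SE 0.23, limma adjusted p = 0.00184) in KO mice. Col18a1, the source of endostatin, was at 43.9 and 46.5 FPKM in WT-NI, 26.5 and 43.9 in KO-NI, 71.9 and 84.3 in WT-I/R 3D, and 69.6 and 94.2 in KO-I/R 3D. It rose in KO mice, by 1.25 on the log2 scale, and limma voom called it higher in WT too (adjusted p = 0.0361, 0.00549 to 0.306 over the alternatives), where the FPKM model did not. The 26.5 FPKM in the first KO-NI library are the lowest of its 8 values. Nidogen 1 (Nid1), which bridges laminin and collagen IV, was at 11.8 and 11.5 FPKM in WT-NI, 12.2 and 13.5 in KO-NI, 16.2 and 17.5 in WT-I/R 3D, and 23.6 and 23.7 in KO-I/R 3D. It rose by 0.53 (SE 0.11, limma adjusted p = 0.0215) in WT and 0.87 (SE 0.11, limma adjusted p = 0.00145) in KO mice, with replicates that differed little. Agrin (Agrn), a heparan sulfate proteoglycan of the glomerular membrane, was at 33.5 and 33.0 FPKM in WT-NI, 26.4 and 33.2 in KO-NI, 42.2 and 51.6 in WT-I/R 3D, and 50.6 and 64.3 in KO-I/R 3D. It passed in KO mice, at 0.94 (SE 0.18, limma adjusted p = 0.00647), and not in WT, at 0.49 (SE 0.18, limma adjusted p = 0.106). Perlecan (Hspg2), between 8.60 and 13.0 FPKM, and nidogen 2 (Nid2), between 7.38 and 8.90 FPKM, were called in no comparison.

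Laminins are the heterotrimers that start basement membrane assembly. Of 9 chains 1 rose and 1 fell in each genotype, and the median log2 fold change was 0.02 in WT and 0.05 in KO mice. Among all genes tested, 8.90% rose and 8.45% fell in WT, and 17.9% and 19.4% in KO mice. The laminin counts were thus near the shares of all genes in WT and under them in KO mice. Lama5, the most abundant alpha chain per length, was at 24.9 and 24.1 FPKM in WT-NI, 20.5 and 25.4 in KO-NI, 27.9 and 28.6 in WT-I/R 3D, and 27.5 and 35.3 in KO-I/R 3D. Lamb1 was at 26.3 and 26.7 FPKM in WT-NI, 25.4 and 28.4 in KO-NI, 22.6 and 25.9 in WT-I/R 3D, and 24.8 and 24.2 in KO-I/R 3D. Neither was called. Lamc1, the gamma chain of most laminins, stayed between 9.89 and 13.1 FPKM, and Lamb2, the beta chain of the glomerular laminin, between 16.0 and 21.1 FPKM. The 2 chains that were called are those of an epithelial anchoring laminin. Lama3 was at 3.41 and 3.57 FPKM in WT-NI, 3.80 and 3.47 in KO-NI, 2.27 and 1.94 in WT-I/R 3D, and 2.07 and 1.56 in KO-I/R 3D, so it fell by 0.71 (SE 0.18, limma adjusted p = 0.0404) in WT and by 0.97 (SE 0.18, limma adjusted p = 0.00627) in KO mice on the log2 scale. The WT call of Lama3 was lost with TPM, with no filter and without any 1 of the 4 WT libraries. Lamb3 was at 0.221 and 0.227 FPKM in WT-NI, 0.215 and 0.463 in KO-NI, 1.76 and 1.80 in WT-I/R 3D, and 1.25 and 1.87 in KO-I/R 3D, and it rose by 2.54 in WT and 1.95 in KO mice. With a pseudocount of 1 its WT value was 1.18 and its KO value 0.93. Its reads may come in part from genes it overlaps, Hsd11b1 and G0s2, since strand in the counting is not stated. The same holds for Col18a1 with Slc19a1, Nid2 with Rtraf, and Col4a1 with Gm15418. Lama1, Lama2 and Lama4 lay between 0.858 and 2.65 FPKM and were not called.

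Lists of genes that make, modify or bind the matrix are to be read beside the shares of all genes, 8.90% higher and 8.45% lower in WT and 17.9% and 19.4% in KO mice. Of 26 collagen biosynthesis genes 23 were tested, and 6 rose and 2 fell in WT, and 9 rose and 2 fell in KO mice, with medians of 0.21 and 0.38. The lower genes of this list were near the share of all genes in WT and under it in KO mice. Serpinh1, the collagen chaperone HSP47, was at 52.4 and 60.8 FPKM in WT-NI, 50.6 and 61.0 in KO-NI, 137 and 149 in WT-I/R 3D, and 151 and 182 in KO-I/R 3D. Its log2 fold change was 1.34 in WT and 1.57 in KO mice. Bmp1, the procollagen C-proteinase, rose by 1.21 and 1.73, and Adamts2, the procollagen N-proteinase, by 2.10 and 2.59. P3h2, a prolyl 3-hydroxylase known for collagen IV, fell, from 77.2 and 72.6 FPKM in WT-NI to 30.1 and 29.9 in WT-I/R 3D, and from 61.1 and 67.6 in KO-NI to 17.9 and 15.4 in KO-I/R 3D. P4hb, the beta subunit of prolyl 4-hydroxylase, and Tgm2, a cross-linking transglutaminase, were the most abundant not called, with means of 238 and 52.4 FPKM over the 8 libraries.

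Of 44 other matrix genes 35 were tested, and 12 rose and 1 fell in WT, and 14 rose and 3 fell in KO mice. Osteopontin (Spp1), made by injured tubules and also counted among their markers, was at 1037 and 1091 FPKM in WT-NI, 1145 and 1023 in KO-NI, 4177 and 6703 in WT-I/R 3D, and 11379 and 13000 in KO-I/R 3D. Mfap4, a microfibril-associated protein, rose by 2.62 in WT and 3.90 in KO mice, Smoc2, related to Sparc, by 2.52 and 2.85, and fibulin 1 (Fbln1) by 1.96 and 2.60. Igfbp7 and Npnt had the highest means among those not called, 1475 and 73.8 FPKM. Of 21 matrix receptor genes 19 were tested, and 4 rose and 0 fell in WT, and 8 rose and 2 fell in KO mice, with the lower genes under the share of all genes. Cd44, the hyaluronan receptor, was at 0.349 and 0.295 FPKM in WT-NI, 0.366 and 0.161 in KO-NI, 7.01 and 12.6 in WT-I/R 3D, and 13.3 and 13.9 in KO-I/R 3D. Ddr2, a receptor for fibrillar collagen, rose by 1.21 and 2.01, Itga5, a subunit of the fibronectin receptor, by 0.88 and 1.24, and Itgb6 by 0.74 and 0.97. Syndecan 4 (Sdc4), with a mean of 138 FPKM, and Ddr1, with 46.6 FPKM, were not called. Of these 3 lists, none had a gene called between genotypes, in injured or in non-injured kidneys.

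Most markers of matrix-making and immune cells were higher in the same libraries as the interstitial genes. The counts that rose stand beside 8.90% of all genes in WT and 17.9% in KO mice. Of 7 fibroblast and pericyte markers tested, of 9 listed, 4 rose in WT and 5 in KO mice and none fell, and the list summed to 49.7 FPKM in each WT-NI library, 45.6 to 47.0 in KO-NI, 99.7 to 107 in WT-I/R 3D and 116 to 134 in KO-I/R 3D. In each genotype 2 of these 7 fibroblast and pericyte markers had a log2 fold change below 0. Macrophage markers rose in 8 of 8 and 7 of 8 cases, with sums of 91.0 to 102, 70.5 to 75.7, 558 to 620, and 618 to 976 FPKM. Injured tubule markers rose in 7 of 8 and 8 of 8 cases. Proximal tubule markers fell in 8 of 9 and 9 of 9 cases. Of 8 endothelial markers 1 fell in WT and 3 in KO mice and none rose, where 8.45% and 19.4% of all genes fell. The part of these cell types in the matrix results was not tested. The lists of adrenal markers summed to 1.15 to 1.87 FPKM in every library.

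Between injured kidneys of the 2 genotypes limma called 0 matrix genes, and 0 (0%) of all genes tested, with a smallest adjusted p of 0.0862. Values are KO-I/R 3D relative to WT-I/R 3D. At p under 0.05 without adjustment, 8 matrix genes were higher and 2 lower, against 5.61% and 11.3% of all genes. With limma voom on the recovered reads 1 matrix gene was called, where 0.471% of all genes were called higher and 1.63% lower. That gene was Lox (log2 fold change 1.06, SE 0.23, limma voom adjusted p = 0.0487), whose KO-I/R 3D libraries held 5.82 and 9.90 FPKM against 3.78 and 3.56 in WT-I/R 3D. In the FPKM model Lox had 1.03 (SE 0.28, limma adjusted p = 0.153), and over all alternatives its adjusted p ran from 0.0487 to 0.596. The log2 fold change was above 0 for 37 of 47 matrix genes and below 0 for 10, against 49.6% and 50.4% of all genes. Both KO-I/R 3D libraries lay above both WT-I/R 3D libraries for 21, against 28.0%. Both lay below for 5, against 29.5%. Interstitial genes had a median of 0.25, basement membrane genes of 0.01 and matricellular genes of 0.38, and the median of all genes was -0.00. Beside Lox, the genes with p under 0.05 and a value above 0 were Nid1, Thbs1, Col3a1, Loxl2, Tnc, Dcn and Col8a1. Nid1 had 0.49 (SE 0.11, limma adjusted p = 0.117), Col3a1 0.73 (SE 0.25, limma adjusted p = 0.216) and Tnc 0.91 (SE 0.34, limma adjusted p = 0.254). Those with a value below 0 were Col4a4 at -0.61 (SE 0.20, limma adjusted p = 0.197) and Lama1 at -0.50 (SE 0.15, limma adjusted p = 0.177). For the fibroblast and pericyte markers the sums of the KO-I/R 3D libraries exceeded both WT-I/R 3D sums, and the macrophage sum overlapped between these groups. Injured tubule markers summed to 12453 and 14425 FPKM in KO-I/R 3D against 4639 and 7504 in WT-I/R 3D, with 8 of 8 above 0 in log2 fold change and 6 at p under 0.05 without adjustment. Proximal tubule markers summed to 1395 and 1109 FPKM against 2083 and 1899, with 9 of 9 below 0 and 6 at such a p. Endothelial markers summed to 131 and 157 FPKM against 205 and 171, with 8 of 8 below 0 and 1 at such a p. The part of these cell types in the genotype values was not tested.

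**Figure D4:**
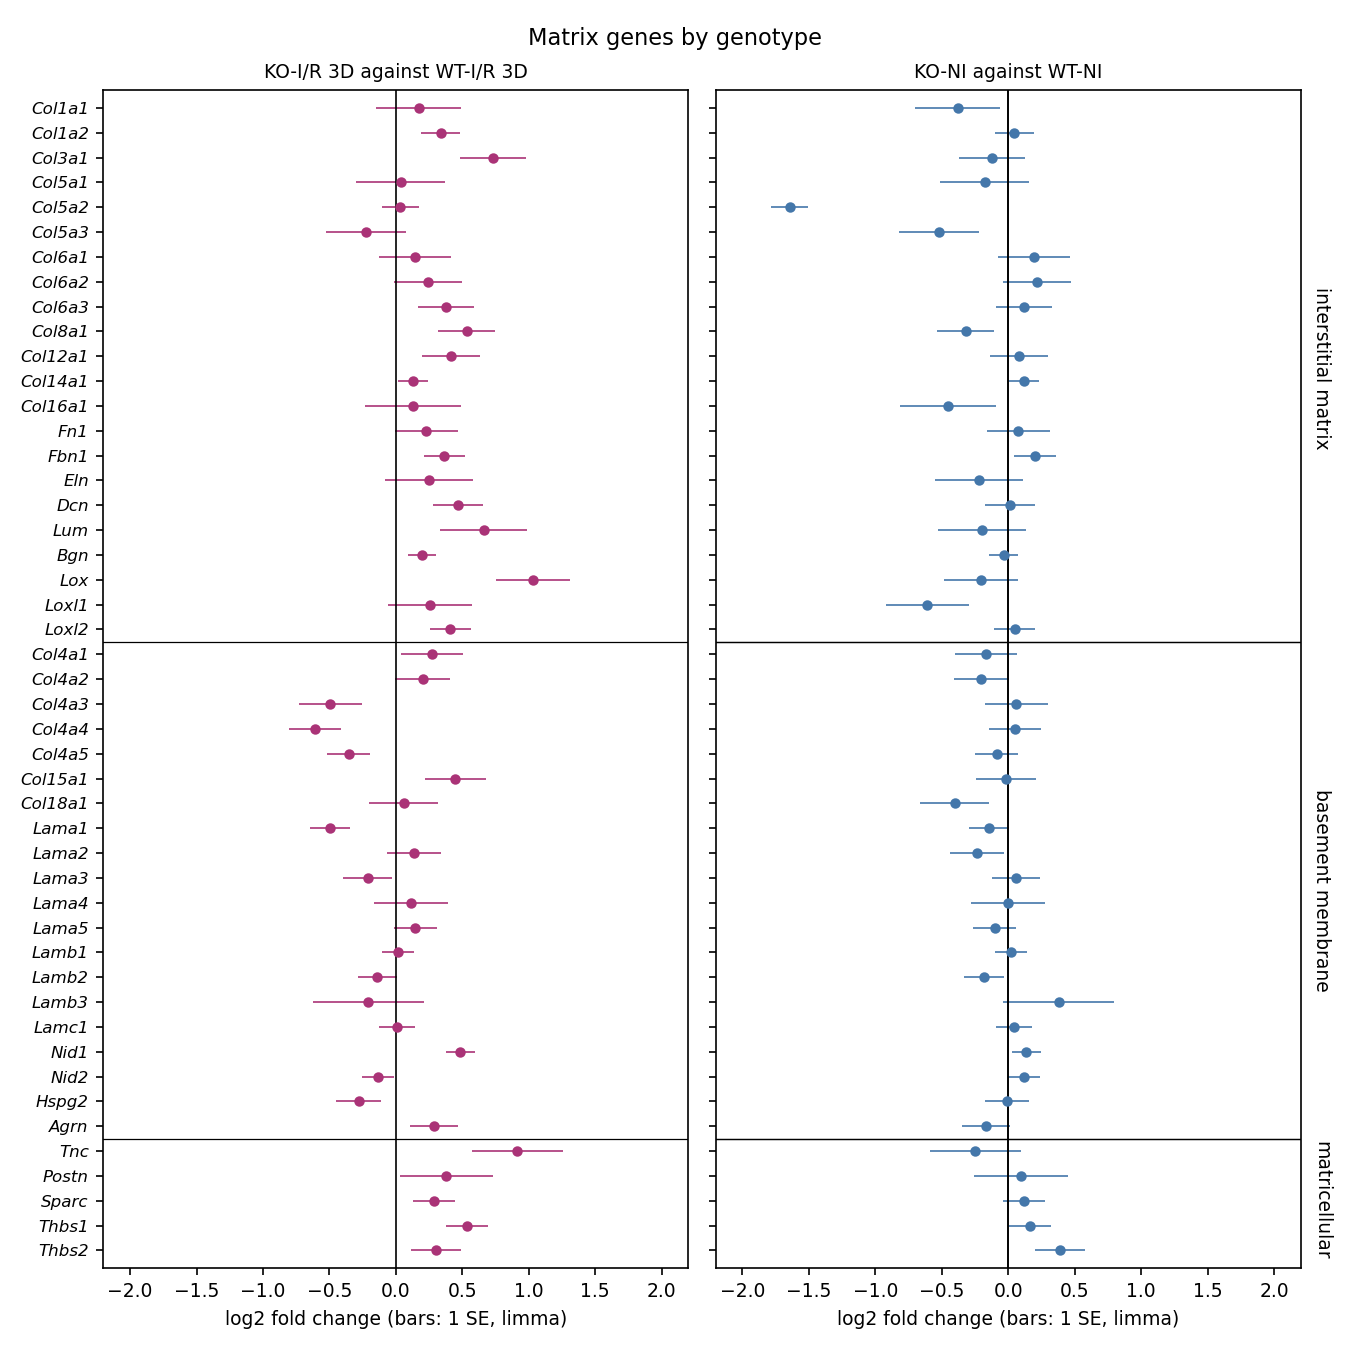
Log2 fold change of FPKM + 0.1 for the 47 matrix genes tested, KO-I/R 3D relative to WT-I/R 3D on the left and KO-NI against WT-NI on the right, with bars of 1 standard error from limma (2 libraries per group). No gene was called in either panel. On the left 37 of 47 points lie to the right of 0, and on the right Col5a2 lies apart at -1.65.

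Between non-injured kidneys, 0 matrix genes were called in the libraries labelled KO-NI against WT-NI, as were 0 (0%) of all genes, by limma. Without adjustment 0 had a p under 0.05 and a higher value and 1 a lower value, against 2.24% and 3.35% of all genes. The median log2 fold change over the matrix genes was -0.01. Both KO-NI libraries lay above both WT-NI libraries for 5 matrix genes, against 17.7% of all genes, and below for 8, against 17.2%. The 1 lower gene was Col5a2, the alpha 2 chain of collagen V, at 9.51 and 8.10 FPKM in WT-NI, 2.80 and 2.67 in KO-NI, 8.27 and 8.58 in WT-I/R 3D, and 7.94 and 9.37 in KO-I/R 3D. Its 2 KO-NI libraries lay close together and far below the other 6, which lay between 7.94 and 9.51 FPKM. The log2 fold change was -1.65 (SE 0.14, limma adjusted p = 0.0662) and ranked 2 by p among 15650 genes. With limma voom Col5a2 was the only gene called of 18252 (log2 fold change -1.68, SE 0.16, limma voom adjusted p = 0.0146, 0.00548% of genes lower and 0% higher). Over all alternatives its adjusted p ran from 0.00728 to 0.836. Col5a2 rose after injury in KO mice, by 1.62 (SE 0.14, limma adjusted p = 0.00054), and not in WT, where its log2 fold change was -0.06 (SE 0.14, limma adjusted p = 0.803). The difference of its injury responses was 1.68 (SE 0.20, limma adjusted p = 0.39). The chain gene Col5a1 and Col3a1, the neighbouring collagen gene on chromosome 1, had no such gap between KO-NI and WT-NI, since Col5a1 was at 1.54 and 3.40 FPKM and Col3a1 at 4.69 and 6.18 FPKM there against 2.51 to 2.72 and 5.04 to 6.86 FPKM in WT-NI. Col5a3 was at 0.247 and 0.514 FPKM in KO-NI against 0.524 to 0.603 FPKM in WT-NI. Without the second KO-NI library, which leaves only the library that stood apart, 0 matrix genes were called higher and 6 lower (Col16a1, Col1a1, Col5a1, Col5a2, Col5a3 and Loxl1), against 5.00% and 9.31% of all genes. Without the first KO-NI library 0 were called.

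**Figure D5:**
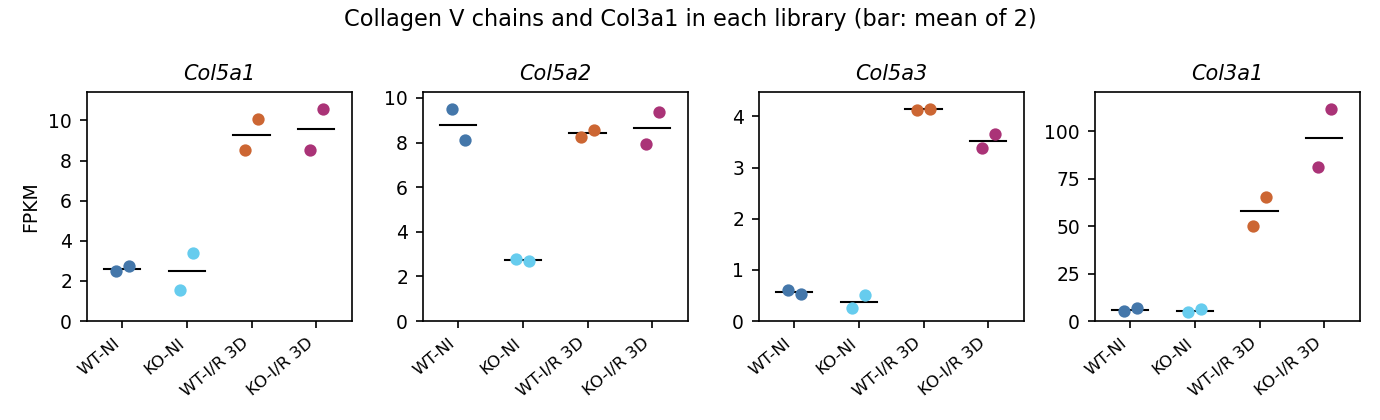
FPKM of the 3 collagen V chains and of Col3a1 in each of the 8 libraries, 2 points per group with a bar at their mean, each panel starting at 0. Col5a2 is at 2.80 and 2.67 FPKM in KO-NI and at 7.94 to 9.51 FPKM in the other 6 libraries, whereas the other 3 genes are low in all 4 non-injured libraries.

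The difference of the injury responses, KO minus WT, was called for 0 matrix genes and for 0 (0%) of all genes. With p under 0.05 before adjustment it was above 0 for 5 and below 0 for 1, against 3.60% and 6.42% of all genes. The 5 were Col3a1, Col5a2, Col8a1, Lox and Tnc, and the 1 was Col4a4. The median over the matrix genes was 0.29, and 0.07 without the first KO-NI library. By limma voom 0 (0%) were called. Without the second KO-NI library 2 were called higher, Col5a2 and Loxl1, and 0 lower, against 1.17% and 0.322% of all genes. The injury comparisons in KO and WT mice, the genotype comparisons and this difference share libraries, so their values are not independent of each other.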

How the data were processed

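Poly-A mRNA of pooled kidneys was sequenced, and the authors deposited 1 table of FPKM values per gene and library. Alignment was by HISAT2 2.0.5 to GRCm38.p6, as listed in the submitters' processing notes. The counting program and its strand setting were not given in the sources used here. With the deposited gene lengths, 100% of the FPKM values could be turned back into whole reads (within 0.001 reads), 13961281 to 18480858 per library. The totals the authors scaled by were 0.808 to 1.13 times these reads. The table held 55923 lines after its header, 4 of them empty, and 55919 genes.

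The 15650 genes that reached 1 FPKM in 2 or more of 8 libraries were tested on log2(FPKM + 0.1) with limma 3.58.1 in R 4.3.3, with 4 group means, a variance trend and all 8 libraries, which left 4 residual degrees of freedom and 2.89 prior ones. Calls needed a Benjamini-Hochberg adjusted p under 0.05 and a log2 fold change beyond 0.5, thresholds of the study. The method was run on simulated data with independent noise and genes changed in a single group. That simulation held no outlying library such as the first KO-NI library, so it does not show how the method fares with one. The alternatives changed the scaling (TPM or median of ratios), the pseudocount (1), the filter (none), the variance trend (none), the fold threshold (none), the libraries (only those compared, or all but 1) or the model (a replicate block, or limma voom on genes with 10 or more recovered reads in 2 libraries).

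Library values are printed for members called in at least 1 comparison and for the 12 with the highest mean, and standard errors and adjusted p for at most the 30 with the smallest adjusted p, with further pairs chosen after their values were seen. Each list of related genes is shown by at most 4 of its called genes, taken by adjusted p, and at most 2 of those not called, taken by mean level. The 48 members and the lists were chosen with earlier results of these data known. Figures were drawn with matplotlib 3.10.9 in Python 3.11.15, and tables were handled with pandas 2.3.3.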

Additional observations from a re-analysis of the deposited data

Results flagged for a closer look

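For 3 basement membrane genes every library of one genotype lay on the opposite side of its non-injured level from those of the other after injury, and for none of them did the difference of the injury responses pass limma's test. How many of all genes did so was not counted. Separation by injury was common, with 34.5% of all genes above and 37.6% below in WT and 32.5% and 34.9% in KO mice. Lama1, the alpha chain of an embryonic laminin, lay higher after injury in WT and lower in KO kidneys, with a difference (KO minus WT) of -0.35 on the log2 scale (adjusted p = 0.645). For Lama2, the alpha chain of muscle and nerve laminin, the injured WT libraries lay lower and the injured KO libraries higher, with a difference of 0.37 (adjusted p = 0.721). Its log2 fold change in KO mice was only 0.05 (SE 0.20). Nid2 lay higher in injured WT and lower in injured KO kidneys, with a difference of -0.26 (adjusted p = 0.675). The levels of Lama1 and Lama2 were under 3 FPKM in each library.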

How the results depend on the processing

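The number of matrix genes that fell in WT kidneys, 1 in the model of the report, was 2 with a pseudocount of 1 or median-of-ratios scaling, 0 with no filter or with TPM, and 3 with only the compared libraries, with the replicate block or with limma voom. Leaving out 1 library gave 10 to 28 higher and 0 to 3 lower genes in WT, 0 to 6 lower genes in KO-NI relative to WT-NI, and 0 to 2 genes with a higher injury response in KO mice. Limma voom called 1 higher gene between injured kidneys (Lox) and 1 lower gene between non-injured kidneys (Col5a2). With the replicate number as a block, 26 rose and 3 fell in WT, 32 rose and 4 fell in KO mice, and 0 were called between genotypes. Deviations from the group means of same-numbered libraries had correlations from 0.03 to 0.17, so the numbers are not shown to pair the pools. This tally covers matrix genes in the comparisons where they were called, with some further pairs picked for it, and not every gene named in the text. Over the alternatives 1171 results stayed on their side of the threshold, 56 were lost and 36 gained, and none turned its direction while called. The comparison of only the compared libraries could not be applied to the difference of the injury responses, which uses all 8. The counts of matrix genes in this section are given without the shares of all genes in the same runs, so they do not single out matrix genes. With 2 pools per group a fold change near the spread between pools was not detectable here. Genes well under 1 FPKM before injury, such as Postn and Lamb3, rest on few reads, so the pseudocount sets part of their fold change.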

Other observations

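Some ratios of collagen chains were higher or lower in injured than in non-injured kidneys and others overlapped. These ratios were formed after the values were seen and were not tested. Col1a1 to Col1a2, the chains of collagen I, stood at 0.953 and 1.00 FPKM per FPKM in WT-NI, 0.532 and 0.984 in KO-NI, 1.85 and 1.98 in WT-I/R 3D, and 1.68 and 1.74 in KO-I/R 3D. Col3a1 to Col1a2 stood at 0.848 and 1.00, 0.750 and 0.893, 1.64 and 1.91, and 2.18 and 2.48 in the same order. Both ratios were higher in each injured library than in any non-injured one, and for Col3a1 to Col1a2 both KO-I/R 3D libraries lay above both WT-I/R 3D libraries. Col6a1 to Col6a3, at 2.33 to 2.73 in the non-injured and 2.11 to 3.01 in the injured libraries, and Col4a1 to Col4a2, at 1.21 to 1.33 and 1.23 to 1.43, overlapped between them.

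Among the 5 collagen IV genes, Col4a3, Col4a4 and Col4a5 together held 52.4% and 49.8% of the summed FPKM in WT-NI, 60.4% and 49.3% in KO-NI, 33.2% and 22.9% in WT-I/R 3D, and 22.3% and 15.2% in KO-I/R 3D. Col4a3 to Col4a4, whose genes are neighbours on chromosome 1, stayed between 0.925 and 1.09 in all 8 libraries.

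Within KO-NI the matrix genes with more G and C tended to lie lower in the first library relative to the second. The first KO-NI library was below the second for 37 of 47 matrix genes, with a median log2 difference of -0.20 against 0.00 over all genes. Spearman's rank correlation of this difference with GC content was -0.78 across the matrix genes and -0.56 across all genes, given as a description, since the genes share 2 libraries. The median GC content was 52.5% in the matrix genes and 49.8% in all genes.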
